A study of Mus musculus with 8 samples.

Results

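The comparison described here sets mouse embryonic stem (ES) cells labelled as lacking ERF against ES cells that keep it, after both had lost RAS. It takes in 4 of the 8 one-colour microarrays of the study, chosen from the sample titles: 2 of ERF wild type cells given 4-hydroxytamoxifen (OHT) and 2 of ERF knockout cells given OHT. Every group was H-Ras-/- and N-Ras-/- and carried the RERTert/ert allele, and OHT was given for at least 2 days. In such cells OHT activates an inducible Cre recombinase, expressed from the RERT allele at the RNA polymerase II locus, and leaves them without RAS. Cultures of both genotypes were kept on gelatin with serum and LIF, and the other 4 arrays hold the same pools untreated. The labels describe a sample as 2 clones mixed, so a group rests on 2 pools, with the A pool as replicate 1: wild type A1 and B1, knockout A2 and B2. They name the 2 samples of a group biological replicates, so the tests measure the spread between 2 pools of clones. That spread is estimated over all 8 arrays, with the untreated and the OHT array of a pool counted as independent. Every group given OHT was engineered to lose RAS, so effects of OHT itself and of the loss cannot be told apart within a genotype, and the labels give no share of cells that lost it.

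ERF is an ETS repressor, a transcription factor that binds DNA at sites built around a GGAA core and holds genes down. ERK, the last kinase of the cascade that runs from growth factor receptors through RAS, RAF and MEK, phosphorylates ERF and keeps it out of the nucleus. Without RAS the cascade is silent, ERF stays in the nucleus and can hold its target genes down. In ES cells the same cascade, driven largely by FGF4, moves cells out of the naive state and towards lineage commitment, and the cells switch on inhibitors of the cascade as feedback. The comparison asks which genes differ, in cells without RAS, between cells with and without ERF.

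Levels are given on the log2 scale relative to the 75th percentile of each array, so that 0 is the level of a fairly bright probe, and differences are labelled knockout minus wild type. Where 4 levels are listed, the wild type pools A1 and B1 come first and the labelled knockout pools A2 and B2 after them. Between 54.2 and 63.6% of the spots on these 4 arrays were well above background, and 0 were saturated. Precision is limited by the number of arrays, 2 a group. The 2 labelled knockout arrays and the wild type array of A1 lay on slide 1, and the wild type array of B1 on slide 2. Parts of the labelled knockout arrays were dark (3.18% of the spots for A2 and 1.26% for B2), and spots there were left out.

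Erf itself read 4.79 and 4.73 in the wild type and 3.62 and 5.08 in the labelled knockout. Pool A2 was below both wild type pools, whereas pool B2 was above them. Untreated, the same pools read 4.90 and 5.21 in the wild type and 3.25 and 5.41 in the labelled knockout. The mean Erf difference after OHT was -0.41 ± 0.77 (SE, n = 2 and 2; limma adjusted p 0.999), and 0.32 without pool A2. The labels do not place the probe inside or outside the deleted part of Erf, so its level is no check of the genotype, and the cells are called the labelled knockout. Hras read 2.70, 2.66, 2.48 and 2.74, and Nras 0.81, 1.67, 1.78 and 1.86. For Hras and Nras too the place of the probe relative to the deletion is unknown.

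The 2 labelled knockout pools differed from each other more than the 2 wild type pools did. Between A2 and B2 the median absolute log2 difference over 14313 genes was 0.43, and 17.5% of the genes differed at least 2-fold. Between A1 and B1 these values were 0.28 and 7.61%, and between the genotype means, which vary less than single arrays, 0.20 and 3.08%. The B pools of the 2 genotypes were the closest pair across genotypes, with a median absolute difference of 0.19, although they lay on different slides. Markers of ES cells set A2 apart: the summed linear level of Pou5f1, Sox2 and Nanog was 65.4 in A2 against 133 in B2, 168 in A1 and 152 in B1. The sum takes in 3 of the 4 markers, since Zfp42 had no usable value on the A2 array. Pou5f1, the core pluripotency factor, read 5.31, 4.76, 3.71 and 5.13. It read 3.68 in A2 before OHT as well. The trophoblast markers summed to 3.80 in A2, 1.09 in B2, 2.11 in A1 and 1.21 in B1 (6 of 6 with a probe, Elf5 not well above background on any array). The fibroblast markers (7 of 8 in the sum) gave 32.6, 18.1, 13.9 and 26.9 in the same order, and Lum was not well above background on any of the 4 arrays. In samples of many cells, fewer cells of a type and less RNA per cell cannot be told apart. Because A2 stands apart, list medians are given below for each labelled knockout pool as well. These pool medians cover the genes of a list read on all 4 arrays.

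Over 14824 genes, 0 passed the limma test of the labelled knockout against the wild type after OHT (0%, adjusted p under 0.05; smallest adjusted p 0.585). An unadjusted p under 0.05 was reached by 347 genes (2.34%), where 741 would be expected by chance, with 157 higher (1.06%) and 190 lower (1.28%) in the labelled knockout. Of the 14313 genes read on all 4 arrays, 1588 (11.1%) were higher in both labelled knockout pools than in both wild type pools and 1699 (11.9%) were lower in both. Among those without overlap and with a mean difference of at least 2-fold, 139 (0.971%) were higher and 123 (0.859%) lower. These 2-fold counts were 17 and 43 with normexp background correction, 88 and 142 after quantile normalization, and 186 and 92 with the 75th percentile taken over all spots. In the mean, 46.2% of genes were higher and 53.8% lower, with a median of -0.03. The higher share of the genes without overlap was 48.3%, but 69.4% with the 75th percentile taken over all spots, dark ones included, and 42.0% after quantile normalization, so the balance of directions depends on the scaling. A single gene cannot be called by an exact permutation of 2 against 2 arrays either, whose smallest two-sided p is 0.333. Every gene described from here on is therefore a measured difference that did not pass the test.

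Target genes of RAS and ERK signalling were mostly higher in the labelled knockout without RAS, chiefly in pool A2. Of 31 measured targets, 23 were higher and 8 lower (46.2% of all genes were higher), and the median difference was 0.57 (-0.03 over all genes). The groups did not overlap for 10 targets that were higher and 2 that were lower (11.1 and 11.9% of all genes), and 4 had an unadjusted p under 0.05, all of them higher (1.06% of all genes). Untreated, the median difference of the list was 0.12. Gene by gene, the gap after OHT exceeded the untreated one by a median of 0.20 (-0.02 over all genes). The list was further from the wild type in pool A2 (median 0.71) than in pool B2 (0.10). Over all genes the medians of A2 and B2 were -0.10 and 0.05. Above the wild type mean were 22 of the 31 in A2, against 6058 of 14313 over all genes, and 19 in B2, against 8187. In B2 the list thus lay close to all genes. Without A2 the list median was 0.10. With the wild type taken from slide 1 alone it was 0.56.

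Several of the targets that stood highest encode feedback inhibitors of the cascade. Spry2, a Sprouty protein that dampens receptor tyrosine kinase signalling, read -0.63 and -0.87 in the wild type and -0.07 and -0.03 in the labelled knockout. Both labelled knockout pools lay above both wild type pools, by 0.70 ± 0.18 (SE, n = 2 and 2; 95% interval 0.27 to 1.12), and the limma adjusted p was 0.999. Untreated, Spry2 had read 0.92 and 1.05 in the wild type and 0.83 and 0.90 in the labelled knockout, with no such gap. Il17rd (Sef), which holds activated MEK and ERK at the Golgi, read 1.83 and 1.77 against 2.79 and 2.43, a difference of 0.81 ± 0.21 with no overlap. The untreated levels of Il17rd were 2.63 and 2.39 against 2.67 and 2.46, so the labelled knockout without RAS stood at about the level of untreated cells. Spry4, a further Sprouty gene, read -3.23, -3.79, -2.81 and -1.83, and Spred1, an inhibitor that recruits the RAS inactivator neurofibromin, 0.35, 1.08, 1.18 and 1.62. Neither Spry4 nor Spred1 overlapped between the genotypes, but their SE of 0.60 and 0.34 were large beside the differences of 1.20 and 0.69. The Spry4 difference was 0.57 with normexp and 0.69 with the slide as a block, and ran from 0.71 to 1.69 with 1 array left out. Spry1 read 0.34, 0.57, 0.58 and 0.96, so that the lower labelled knockout pool barely exceeded the higher wild type pool.

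The ERK phosphatases were higher as well. Dusp6, a cytoplasmic phosphatase that inactivates ERK, read 2.44 and 2.41 in the wild type against 3.07 and 2.92, a difference of 0.57 ± 0.17 without overlap. Its untreated levels were 4.67 and 4.75 against 5.12 and 5.02, so Dusp6 was higher in the labelled knockout with RAS too, by 0.36. Dusp4, the nuclear counterpart, read -0.45, 0.01, 0.67 and 0.40. In both genotypes both Dusp genes lay well below their untreated levels.

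Among the transcription factor targets, Myc, a driver of growth and proliferation, read 0.31 and 0.20 in the wild type and 1.46 and 1.28 in the labelled knockout. The difference was 1.12 ± 0.28 (a ratio of 2.17) without overlap. Before OHT, Myc read 2.24 and 2.96 against 2.43 and 2.80, with overlap. The ETS activator gene Etv1 went the other way, reading 1.87, 1.63, 1.40 and 1.41, and Etv5 (6.56, 6.19, 5.71 and 6.36) overlapped. Some targets were high in a single pool: the immediate early gene Egr1 read -1.53, -1.51, -0.05 and -1.59, and Jun, an AP-1 subunit, 2.26, 1.53, 3.97 and 1.39. For Egr1 and Jun, B2 was at or below the wild type levels. Ier3, an early response gene, was also highest in A2, at 1.59, with 0.35 in B2 against -0.01 and 0.25 in the wild type.

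**Figure D1:**
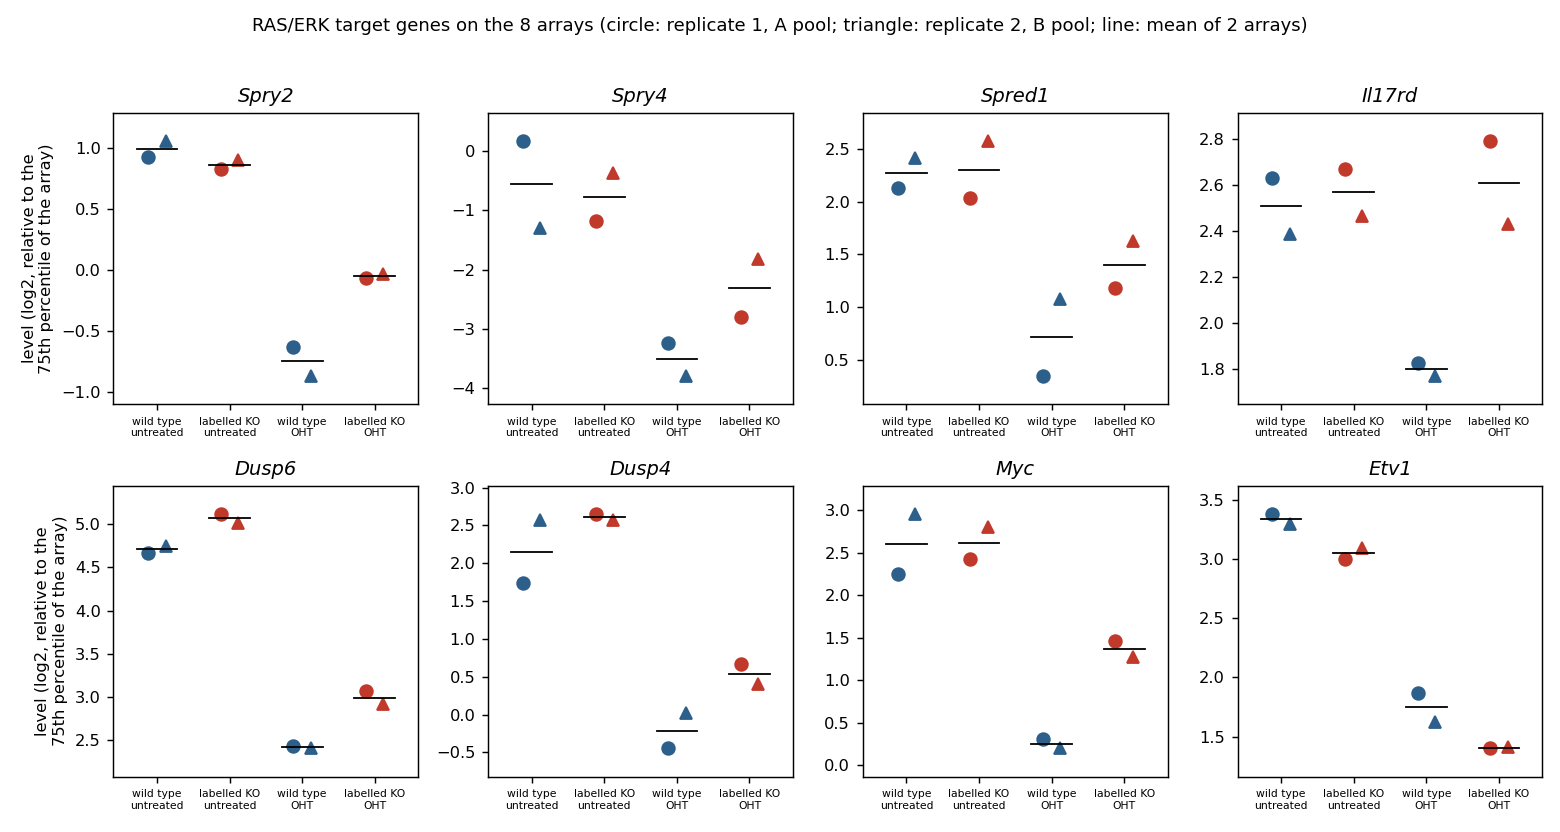
Level of 8 RAS/ERK target genes (vertical axis, log2 relative to the 75th percentile of the array) on each of the 8 arrays, with a circle for replicate 1, a triangle for replicate 2 and a line for the mean. After OHT, Spry2 lies between -0.07 and -0.03 in the labelled knockout and between -0.87 and -0.63 in the wild type, while Etv1 is lower in the labelled knockout.

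Whether the gap between genotypes differed with and without RAS was tested in the same fit. Over 14824 genes, 0 passed (0%; smallest adjusted p 0.684), and 149 had an unadjusted p under 0.05 (1.01%). For Spry2 the gap after OHT exceeded the untreated one by 0.82 ± 0.25, for Myc by 1.10 ± 0.40 and for Il17rd by 0.75 ± 0.29 (limma adjusted p 1.00 each). For Dusp6 it exceeded it by 0.22 ± 0.24. Spry2, Myc and Il17rd were picked as the targets with the smallest p after OHT, and over the list of targets the median was 0.20. This fit treats the untreated and the OHT array of a pool as independent. With the pool as a random block limma called 6 genes for this difference (Cbx7, Cidea, Gm10190, Gm5142, Slc7a2 and Spata22), with 1271 at an unadjusted p under 0.05, and for Cidea the adjusted p was 0.0431. The untreated comparison alone also called 0 genes (0%), with 173 at an unadjusted p under 0.05 (1.17%).

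ERF binds DNA through an ETS domain, so the start regions of genes on either side were searched for an ETS core. The letters searched for were CCGGAA on either strand (TTCCGG read on the other), which stand in 14.9% of the 32851 RefSeq windows of 250 bases before to 50 after a start. A gene can have several windows, and 27.8% of the 11784 genes tested here with a window held the letters in at least 1. Counted by gene in this way, 1 of 22 RAS/ERK targets held them, Spry2, as did 1 of the 8 leading genes with a window in each direction. The RefSeq windows of Spry2 and Il17rd, higher in the labelled knockout, and of Sox21 (by the tested 1 of its 2 probes) and Lrrc15, lower in it, are printed on assembly GRCm38.p6, 5′ to 3′, with any match in capitals:
Spry2 (chr14:105896770-105897069, minus strand): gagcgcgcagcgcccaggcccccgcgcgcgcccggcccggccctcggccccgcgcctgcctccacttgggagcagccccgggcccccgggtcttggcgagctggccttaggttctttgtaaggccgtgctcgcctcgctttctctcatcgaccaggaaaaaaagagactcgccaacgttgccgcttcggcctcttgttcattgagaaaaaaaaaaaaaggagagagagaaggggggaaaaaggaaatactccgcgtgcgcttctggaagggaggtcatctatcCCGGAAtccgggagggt
Il17rd (chr14:27038751-27039050, plus strand): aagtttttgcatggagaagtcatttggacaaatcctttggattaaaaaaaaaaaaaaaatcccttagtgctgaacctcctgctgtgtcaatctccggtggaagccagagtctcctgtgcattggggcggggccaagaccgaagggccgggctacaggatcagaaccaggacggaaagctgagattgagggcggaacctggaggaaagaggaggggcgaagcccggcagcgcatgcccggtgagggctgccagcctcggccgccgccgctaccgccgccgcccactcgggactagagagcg
Sox21 (chr14:118236981-118237280, minus strand): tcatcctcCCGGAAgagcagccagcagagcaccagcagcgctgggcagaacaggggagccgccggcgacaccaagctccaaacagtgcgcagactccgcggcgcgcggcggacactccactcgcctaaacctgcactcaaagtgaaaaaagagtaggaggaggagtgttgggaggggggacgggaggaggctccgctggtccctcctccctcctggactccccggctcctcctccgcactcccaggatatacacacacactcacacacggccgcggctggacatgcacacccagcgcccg
Lrrc15 (chr16:30283205-30283504, minus strand): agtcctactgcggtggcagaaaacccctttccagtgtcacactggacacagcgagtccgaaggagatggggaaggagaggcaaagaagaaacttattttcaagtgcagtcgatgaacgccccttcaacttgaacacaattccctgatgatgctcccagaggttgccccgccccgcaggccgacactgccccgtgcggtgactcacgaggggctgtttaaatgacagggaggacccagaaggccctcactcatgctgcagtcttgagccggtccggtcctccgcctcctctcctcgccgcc
The match in Spry2 begins 33 bases after the start, and that in Sox21 begins at -242 relative to it. Neither Il17rd nor Lrrc15 holds these letters in the window. A match is a description of the sequence and not a binding site.

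The genes named next were picked in each direction as those with the smallest p among genes whose 2 groups do not overlap. The choice also required the higher group to be well above background on both of its arrays. The separation of these genes and their signal in the higher group thus follow from the choice and are given as a description. Among those lower in the labelled knockout, Cidea, a lipid droplet protein, read 1.21 and 1.34 in the wild type and -0.38 and -0.43 in the labelled knockout. The difference was -1.68 ± 0.17 (95% interval -2.10 to -1.26), a 3.21-fold higher wild type level, with a limma adjusted p of 0.585. Lrrc15, a leucine-rich repeat membrane protein, read 1.26 and 1.09 against -0.25 and -0.41, 2.84-fold higher in the wild type. Both genes were low in untreated cells of either genotype: Cidea read -0.69, -0.64, -0.84 and -1.06 there, and Lrrc15 -1.60, -1.39, -1.56 and -1.88. After OHT the labelled knockout was thus above its untreated level too, but less so than the wild type.

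Elf3, an epithelial ETS factor, read 0.88 and 0.57 against -1.07 and -0.60, and Sox21, a neural and epithelial transcription factor, -1.16 and -0.48 against -2.56 and -2.28. The other Sox21 probe did not show the gap, reading -2.12 and -2.00 against -2.37 and -2.09, a difference of -0.17 with overlap. The tested probe was the brighter of the 2 in both wild type pools after OHT, and the other probe was the brighter in both labelled knockout pools. For Elf3 and the tested Sox21 probe A2 lay within the range of the 4 untreated arrays, B2 slightly above it, and the wild type pools further above it. Cyp26a1, which breaks down retinoic acid, read -2.25, -2.42, -3.64 and -3.61, a difference of -1.29, or -0.68 with normexp. Ttll6, a tubulin polyglutamylase, read 0.37, 0.37, -0.53 and -0.56, and Oas1a, an interferon-induced antiviral enzyme, 1.56, 1.34, 0.51 and 0.43. The pools of a genotype lay closer together than the genotypes in each of these 7 genes. Aldh3b2 (at least 1.54-fold), Ceacam10 (at least 1.90-fold) and Dyrk4 (at least 1.44-fold) were well above background only in the wild type, where the choice required it. These bounds set the brighter mean against the dimmest probe well above background on each dim array, or the dim probe itself where that was higher. They hold only for the background subtraction of the scanner output. With normexp the log2 differences of Aldh3b2, Ceacam10 and Dyrk4 were -0.43, -0.42 and -0.32, smaller than the bounds.

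Among the leading genes on the higher side, Slc39a14, a zinc and iron transporter, read 0.87 and 0.64 in the wild type and 1.91 and 2.29 in the labelled knockout, a difference of 1.34 ± 0.20. Zfp36l1, an RNA-binding protein that speeds the decay of AU-rich messages, read 1.90 and 1.68 against 2.91 and 2.78, a difference of 1.05 ± 0.17. Untreated, Slc39a14 had read 2.34 and 2.23 against 2.64 and 2.64, and Zfp36l1 2.64 and 2.72 against 2.84 and 2.86. Zfp36l1 thus stood near the untreated levels in the labelled knockout without RAS, and lower in the wild type without RAS. Slc39a14 was below the untreated levels of the same genotype in both, further so in the wild type. St6gal2, a sialyltransferase, read -4.92, -4.79, -3.40 and -3.48, with 1 of the 2 wild type arrays above background. After OHT the other 7 were well above background only in the labelled knockout, where the choice required it. With the bounds as above these were Pabpn1l (at least 2.89-fold), Myoc (2.68), Gm5142 (2.10), Nsun3 (1.96), Gm3414 (1.81), Gm10190 (1.64) and Gp1bb (1.42). Normexp gave log2 differences of 0.71, 0.54, 0.37, 0.38, 0.32, 0.46 and 0.37 in this order, each smaller than its bound. Untreated, Myoc was well above background on 2 arrays and Gm3414 on 1. After OHT the signals of these 7 genes were near the detection limit, from -4.76 to -3.07 in the labelled knockout.

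**Figure D2:**
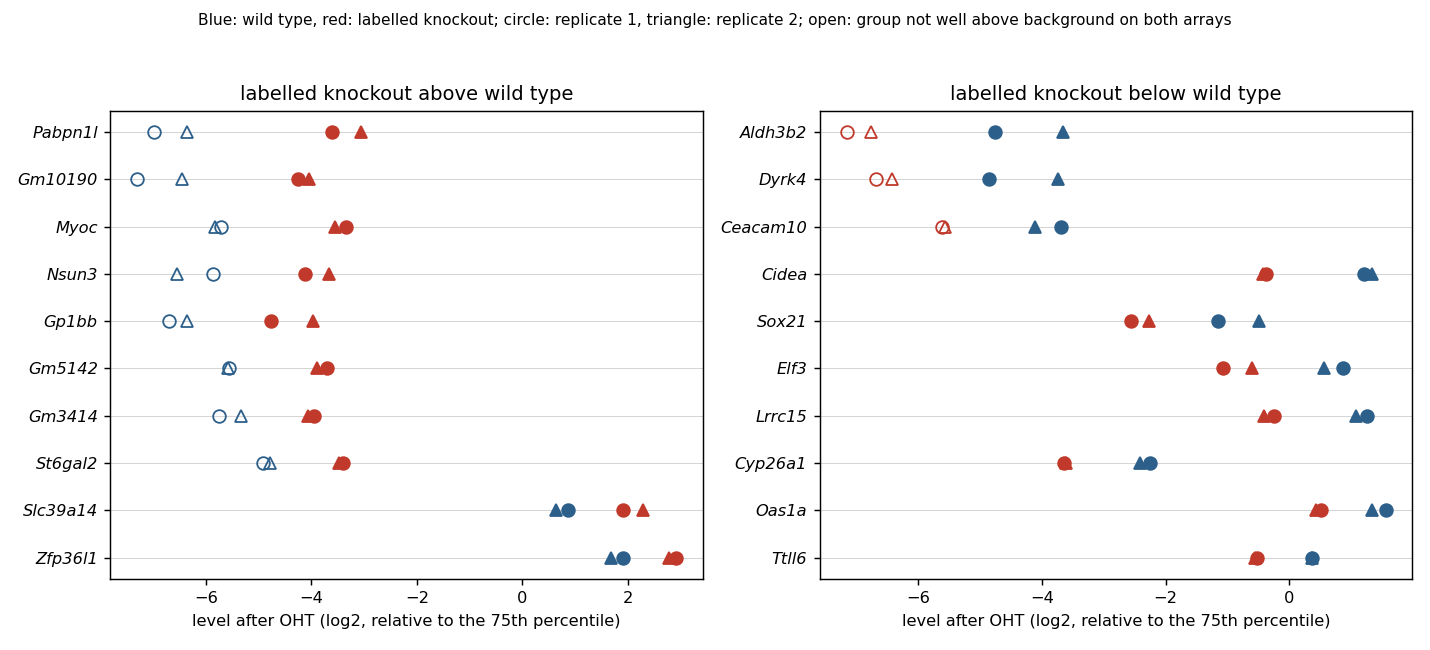
Level after OHT (horizontal axis, log2 relative to the 75th percentile of the array) of the 10 leading genes in each direction, wild type in blue and labelled knockout in red, circles for replicate 1 and triangles for replicate 2. Open symbols mark groups not well above background on both arrays, as for Pabpn1l in the wild type and Aldh3b2 in the labelled knockout; Cidea, Lrrc15, Slc39a14 and Zfp36l1 are above background throughout.

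Genes of the naive pluripotent state, the ground state of ES cells, were mostly lower in the labelled knockout, but chiefly in pool A2. Of 26 measured members, 20 were lower and 6 higher (53.8% of all genes were lower), with a median of -0.43. The groups did not overlap for 10 that were lower and 1 that was higher (11.9 and 11.1% of all genes). The median was -0.92 in A2 and 0.02 in B2, and untreated it was -0.38. Without A2 the median turned to 0.04, and with the wild type from slide 1 alone it was -0.39.

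A few naive genes were lower in both pools. Pramel6 and Pramel7, naive-state genes that counter differentiation, read 0.25, -0.21, -2.07 and -1.46, and -0.20, -0.73, -1.97 and -1.56. The differences were -1.78 ± 0.40 and -1.30 ± 0.34, or -1.29 and -0.97 with background correction by normexp. Both Pramel genes were also lower in the untreated labelled knockout, at -3.04 and -3.67 against -1.85 and -2.66 for Pramel6. Prdm14, which represses FGF signalling and differentiation genes, read 2.42 and 2.37 against -0.37 and 1.66. Nanog read 6.87, 6.83, 5.48 and 6.44, and Klf2 6.56, 6.16, 5.15 and 5.96. The dimmest of 3 Nanog probes went the other way (0.40). On the levels given for Prdm14, Nanog and Klf2 the larger gap belonged to A2, whose summed ES cell markers were 65.4 against 133 to 168 in the other pools, and the part of that in the result was not tested. Dppa3 (Stella), a factor of naive and germ cells, read 3.02, 3.28, 2.64 and 2.81, and Dppa5a was higher in both pools at 6.42 and 6.43 against 6.14 and 5.55.

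Core pluripotency genes showed no common direction, with 8 of 17 higher and a median of -0.01 (0.07 with the 75th percentile over all spots), or -0.21 in A2 and 0.05 in B2. Utf1, a chromatin protein of undifferentiated cells, read 4.88 and 5.36 against 5.60 and 6.11, and Sall4, a zinc finger factor, 4.39 and 4.23 against 3.61 and 4.04. Formative and primed epiblast genes, of the state after the naive one, had a median of 0.12 with 17 of 28 higher (46.2% of all genes), but 0.49 in A2 and -0.19 in B2. Dnmt3l and Dnmt3b, genes of the DNA methylation machinery, read 6.54, 6.50, 7.12 and 6.97, and 5.76, 5.64, 6.20 and 5.83. Neither overlapped on the probe tested, and before OHT Dnmt3l had read 7.14, 7.18, 7.47 and 7.37. Another Dnmt3b probe overlapped, with a difference of 0.17, and the remaining one had no usable value in B2. Lefty2, a Nodal antagonist, read 4.40, 4.76, 3.53 and 4.39. Hesx1, an anterior neural homeobox gene, read 0.04, 0.64, -2.06 and -0.72, and Rax, a retinal homeobox gene, -2.86, -2.15, -3.96 and -3.76. Gsc, an organizer homeobox gene, read -1.83, -2.07, -3.31 and -3.83. These 3 homeobox genes were lower in both labelled knockout pools, while their lists showed no shift (neural median -0.07 over 13 genes, primitive streak and mesoderm 0.03 over 9). The neural median was -0.30 in A2 and -0.05 in B2, and that of primitive streak and mesoderm 0.06 and -0.18. With normexp the Gsc and Rax differences were -0.93 and -0.60, against -1.62 and -1.35.

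Genes of primitive endoderm, an early lineage that FGF and ERK signalling induces from the inner cell mass, were lower in both labelled knockout pools. Of 20 measured members 16 were lower and 4 higher (53.8% of all genes were lower), with a median of -0.45. The groups did not overlap for 7 that were lower and 1 that was higher (11.9 and 11.1% of all genes). The medians of A2 and B2 were -0.44 and -0.50. The list was lower in the untreated labelled knockout too, with a median of -0.33, and with the wild type from slide 1 alone the median after OHT was -0.22. Gata4 read -1.61 and -0.82 against -2.35 and -1.78, Gata6 -2.26 and -1.14 against -2.44 and -2.45, and Sox17 -2.44 and -2.05 against -2.87 and -3.15. Gata4, Gata6 and Sox17 are the transcription factors that define the lineage. Pdgfra, its surface receptor, read -2.93, -1.67, -3.15 and -3.30. For Gata6 and Pdgfra the gap to A1 was much narrower than that to B1, the pool on slide 2. Hnf4a, a later endoderm factor, read -2.94, -2.78, -5.02 and -3.53, with 1 of the 2 labelled knockout arrays above background, and Lamc1, a laminin chain, 5.51, 5.34, 5.01 and 5.07. With normexp the differences of Sox17 and Gata4 were -0.41 and -0.56, against -0.77 and -0.85, and that of Hnf4a -0.49 against -1.41. With the slide as a block Gata4, Gata6, Sox17 and Pdgfra differed by -0.38, -0.22, -0.47 and -0.30.

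Genes of the FGF pathway were lower as well, 10 of 13 (53.8% of all genes), with a median of -0.18 and -0.25 in each of A2 and B2. Fgf4, the main ligand that ES cells make, read 6.10 and 6.42 against 4.29 and 6.01. Fgf15, a ligand of early neural and epiblast cells, read -0.60, -1.32, -2.41 and -1.52. Of the receptors, Fgfr1 read 4.85, 4.59, 4.51 and 4.52, and Fgfr2 -1.11, -1.25, -1.43 and -1.71. The dimmest probe of Fgfr1 differed by 0.17, with overlap. The groups did not overlap for 5 members, all lower (11.9% of all genes), and Fgf4 was low chiefly in A2. Of the 25 RAS to ERK kinases and their regulators 13 were higher and 12 lower, with a median of 0.07 (-0.04 in A2 and 0.01 in B2), and Map2k1 (MEK1) read 3.09, 3.21, 2.35 and 2.92.

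Trophoblast genes, of the placental lineage, split between the pools. Of 21 measured members 14 were higher and 7 lower in the mean (46.2% of all genes were higher). The groups did not overlap for 1 that was higher and 4 that were lower (11.1 and 11.9% of all genes). Over the 18 members read on all 4 arrays the median was 0.56 in A2 and -0.75 in B2. The list median of 0.20 thus describes neither pool, and without A2 it turned to -0.74. Eomes, of the trophoblast markers summed above, was higher in both pools, at linear levels of 0.26 and 0.22 against 0.50 and 0.32. Tfap2c and Gata2, trophoblast regulators among the 7 lower members, were lower in both pools. Tfap2c read 4.37 and 4.25 in the wild type against 3.12 and 3.46, a difference of -1.03 ± 0.22, and untreated it read 2.72, 3.02, 2.79 and 3.07. Gata2 read 0.58 and 0.40 against -0.12 and -1.28, and untreated -2.24, -1.90, -0.94 and -1.70. Both regulators were thus above the untreated range in the wild type without RAS. In the labelled knockout Tfap2c was above that range in both pools, though by less, and Gata2 exceeded it in A2 and lay within it in B2. The gap after OHT differed from the untreated one by -1.08 ± 0.31 for Tfap2c and -1.94 ± 0.62 for Gata2 (limma adjusted p 1.00 each). Plac1, a placental gene, read -2.14, -1.98, -3.55 and -4.09, a difference of -1.76, or -0.88 with normexp. Krt18, an epithelial keratin also expressed in trophoblast, read 6.06, 4.48, 7.99 and 4.35, high in both A pools.

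**Figure D3:**
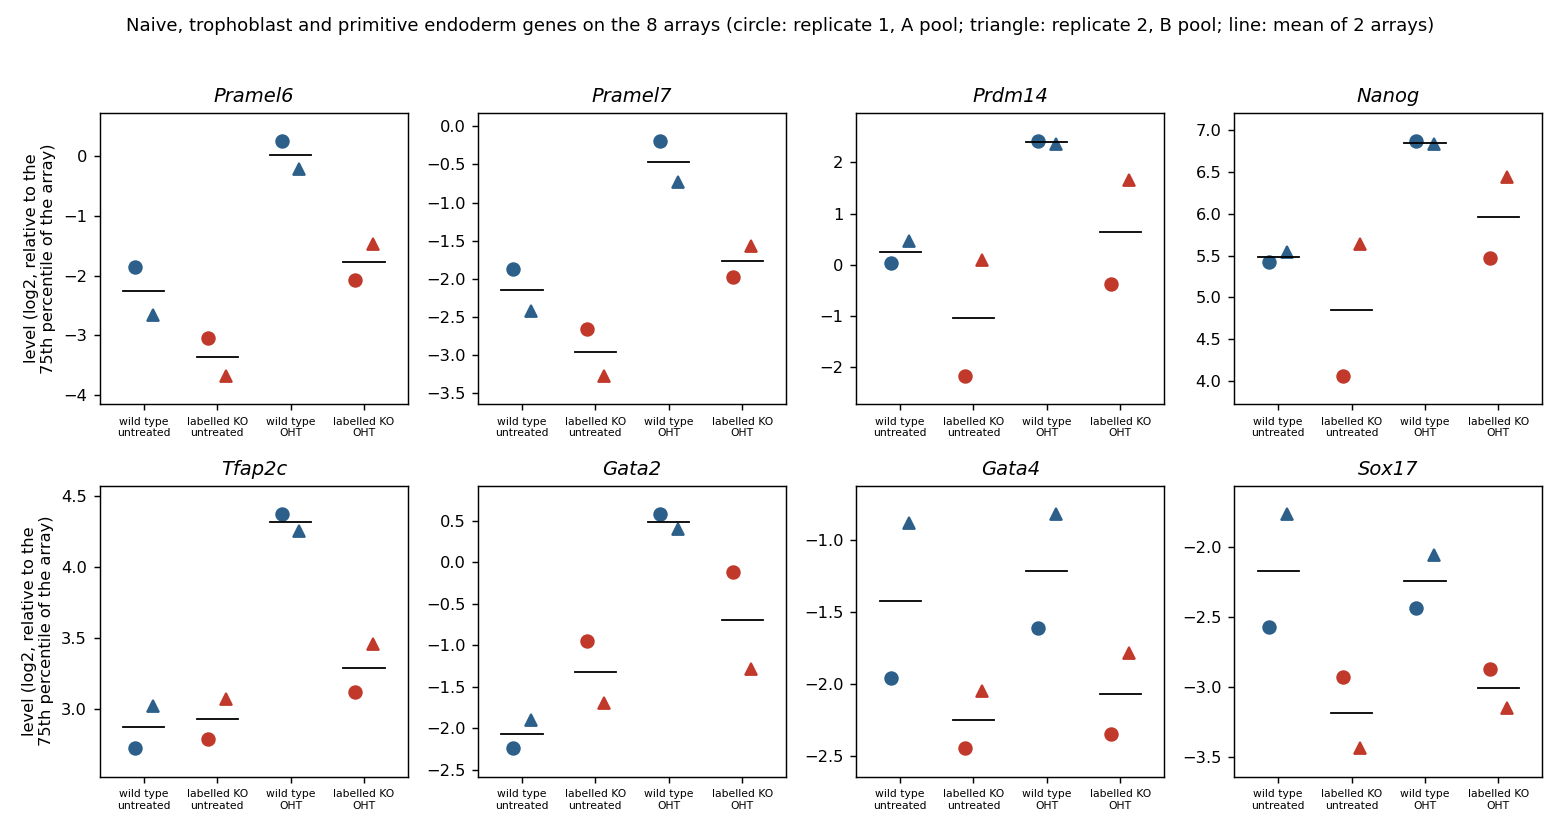
Level of 4 naive pluripotency genes (Pramel6, Pramel7, Prdm14, Nanog), 2 trophoblast genes (Tfap2c, Gata2) and 2 primitive endoderm genes (Gata4, Sox17) on each of the 8 arrays (vertical axis, log2 relative to the 75th percentile), with circles for replicate 1, triangles for replicate 2 and lines for means. Tfap2c reads 3.12 and 3.46 in the labelled knockout after OHT, below both wild type arrays at 4.37 and 4.25, while Prdm14 and Nanog are lowest in pool A2.

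The ETS family, to which ERF belongs, had no common direction: 8 of 19 measured members were higher and 11 lower, with a median of -0.08 (-0.15 in A2 and 0.03 in B2). Elk3 and Elk4, ternary complex factors that ERK activates, were higher in both pools, at 1.81 and 2.00 against 1.17 and 1.63, and -1.06 and -1.11 against -1.27 and -1.79. The dimmest probe of each gene overlapped, with differences of -0.02 for Elk3 and 0.32 for Elk4. Blocking on the slide gave 0.16 for Elk4, against 0.44. Ets2 read 1.77, 1.98, 1.53 and 1.60, and Spic, an ETS factor of macrophages, -2.58, -1.54, -3.90 and -3.09. Elf3, described above, had the largest difference of the family relative to its SE.

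Several lists departed from 0 in pool A2 and hardly at all in B2. Contractile genes and targets of SRF, the serum response factor that works beside ERK-activated Elk proteins, stood above the wild type mean for all 18 measured members (46.2% of all genes were higher), at a median of 0.63, made of 1.43 in A2 and -0.03 in B2. Srf itself read 2.27, 2.25, 2.73 and 2.57, but 2.04, 1.67, 2.36 and 1.40 on its other probe, where B2 lay below both wild type pools and the difference was 0.03. The light chain gene Myl9 read 4.37, 4.69, 5.64 and 4.73, while Cnn1, a smooth muscle calponin, read 3.06, 2.91, 5.25 and 2.72. The untreated median was 0.56, so this list stood apart before OHT as well. Epithelial junction genes were higher in 17 of 19 cases (0.87 in A2, 0.11 in B2), with Cldn7, a tight junction claudin, at 1.65, 1.59, 3.26 and 2.11. Fibroblast genes were higher in 18 of 20 (0.75 and -0.01), with the collagen gene Col5a2 at -4.71, -3.82, -2.50 and -3.74. The groups did not overlap for 1 fibroblast gene that was higher and 0 that were lower (11.1 and 11.9% of all genes). Between the wild type pools the fibroblast genes differed nearly as much, with B1 above A1 by a median of 0.72 (0.07 over all genes). Lower in A2 were DNA replication genes (20 of 22 lower, -0.60 in A2 and 0.07 in B2) and mitosis genes (17 of 19 lower, -0.35 and 0.02). Orc1, a subunit of the origin recognition complex, read 1.59, 1.83, 1.10 and 1.41, and Cenpe, a kinetochore motor, 5.42, 5.49, 5.17 and 5.16. The medians of contractile, fibroblast, DNA replication and mitosis genes changed sign without A2, and the part of its lower ES cell markers and higher summed fibroblast markers in these lists was not tested.

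Some single genes of other lists were apart in both pools. The RNA sensor gene Ddx58 (RIG-I) read 1.21 and 0.79 in the wild type against 1.89 and 1.71, and Isg15, a ubiquitin-like interferon-induced protein, -1.84, -1.83, -0.46 and -1.35, whereas Oas1a was lower. So interferon-response genes did not share a direction. Smad7, an inhibitor of TGF-beta signalling, read 1.12, 0.49, 1.52 and 1.67, and Piwil2, a piRNA-binding protein of the germline, -1.46, -1.68, -0.99 and -0.45. Cdkn2a, which encodes the cell cycle inhibitors p16 and p19, read 2.54, 3.40, 3.83 and 3.66, and Cdkn1c (p57), an imprinted inhibitor, 5.14, 4.14, 3.57 and 3.61. The 2-cell-like gene Zscan4c followed the pool letter and not the genotype: 5.49 in A1 and 4.95 in A2, against 1.66 in B1 and 0.38 in B2.

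**Figure D4:**
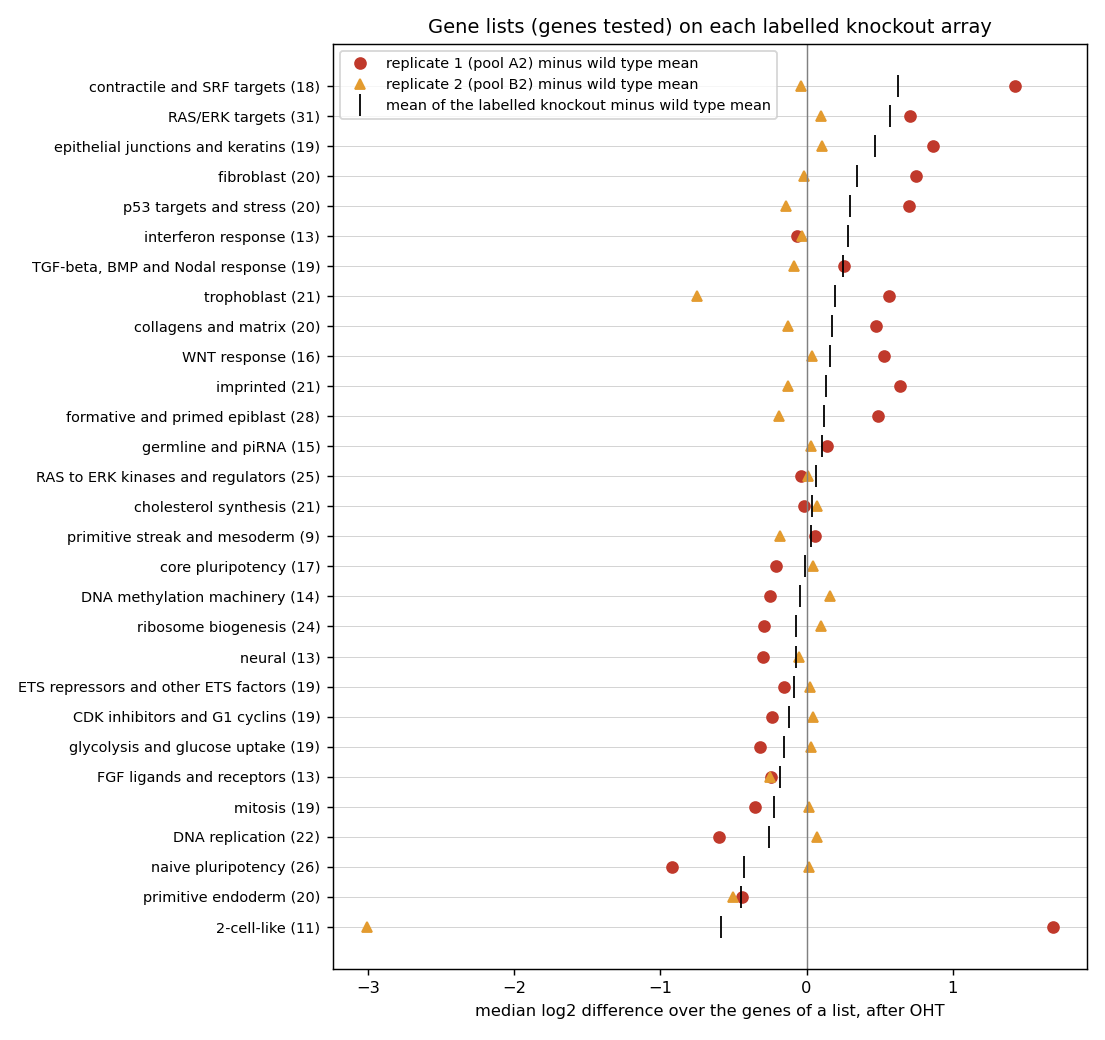
Median log2 difference from the wild type mean after OHT (horizontal axis) over the tested genes of 29 lists, their number in brackets, for pool A2 (circles), pool B2 (triangles) and the mean of both (ticks). Contractile genes reach 1.43 in A2 and -0.03 in B2, while primitive endoderm genes lie at -0.44 and -0.50.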

How the data were processed

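Each sample's total RNA, labelled with Cy3, was read on 1 array. The authors' scanner output, from Agilent Feature Extraction (version 11.5.1.1 in the file headers), gives the processed intensity of each spot, with background subtracted and no scaling across arrays. They also hold other columns of 0 or 1 flags (well above background, saturated, outlier), per the file headers. A deposited table of log2 values (column medians -0.158 to 0.133) correlated with the scanner output by probe name at -0.0105 to 0.0009. Its scaling, centring and naming are unknown, and it was not used.

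Control and outlier spots were left out, as were dark areas, where the median deviation in a window of 5 spots each way from the typical pattern was below -0.5 (log2). The log2 intensity minus the 75th percentile of each array's other spots was tested; the percentile over unmasked spots was chosen after seeing the data, because dark spots moved it. Probe accessions were named through RefSeq's GRCm38.p6 gene table, with no coordinates taken: 21154 genes were found for 28026 probes, and 27655 probes have no name here. Tested were probes well above background on both arrays of an OHT group, with 1 probe kept a gene (most unmasked arrays, then the brightest), which gave 14824 genes, of which 511 were masked on some OHT array.

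Tests used limma 3.58.1 in R 4.3.3 (lmFit, eBayes) on 4 group means of 8 arrays (4 residual degrees of freedom), two-sided, with Benjamini-Hochberg adjustment over all genes and a threshold of 0.05. The SE and intervals rest on the spread over these 4 groups, with both arrays of a pool counted as independent. With the pool as a random block, the estimated correlation between arrays of a pool was 0.84. In simulated data for this comparison (14165 genes) limma recovered 6 of 50 genes changed by 1 on the log2 scale. It recovered 23 of 50 changed by 2 and 82 of 100 changed by 4, with 4 of 13965 unchanged genes called. The simulation drew the arrays of a pool independently, so these counts do not describe data with the correlation given above. The members, gene lists (29 lists, 561 genes, some in several lists) and tests were chosen with earlier results of these data known. Named by rule are Erf and RAS genes, 10 genes a direction by smallest p, up to 3 genes a list by smallest p, and 4 genes a direction of the difference of the contrasts. Not all of these are reported here, and further list members are named to show how a list varied, chosen after their values were seen. Python 3.11.15 with matplotlib 3.10.9, pandas 2.3.3 and numpy 2.4.6 made the tables and figures. The alternatives tried were other masks, scalings, background corrections, filters, variance models, blocks and the omission of single arrays.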

Additional observations from a re-analysis of the deposited data

How the results depend on the processing

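With limma, 0 genes were called after OHT under each setting that kept all 4 arrays, and the counts at an unadjusted p under 0.05 ran from 220 (the 4 OHT arrays alone) to 541 (slide as a block), besides 1298 with the replicate number as a block. That replicate block called 0 genes; the labels do not say that a number joins pools across genotypes, and deviations of same-numbered arrays correlated at 0.48. Leaving out 1 array gave 0 to 7 calls: 0 without either wild type array, 7 without the labelled knockout array of A2 and 6 without that of B2 (1221 at an unadjusted p under 0.05, against 249 without the wild type array of B1). All 13 have their spot within 2 spots of a dark area on the labelled knockout array that was kept, and with a margin of 3 spots around the dark areas, chosen after seeing the data, the same omissions called 0. For the difference of the contrasts, 6 genes were called with the pool as a random block (Cbx7, Cidea, Gm10190, Gm5142, Slc7a2 and Spata22), and 0 to 5 with 1 array left out: Apbb2, Cep63, Cpne3, Tom1l1 and Zkscan17 without A2, and Bsg, Gm8801 and Tbrg1 without B2, again beside dark areas. With 1 array left out, the Erf difference ran from -1.14 to 0.32, that of Hras from -0.21 to 0.058 (0.0037 without the mask and with the 75th percentile over all spots), Egr1 from -0.072 to 1.47, Jun from -0.50 to 2.08, Pou5f1 from -1.32 to 0.10, Krt18 from -0.92 to 2.72, Cnn1 from -0.26 to 2.26, Zscan4c from -3.20 to 1.38 and Spata22 from -0.21 to 0.024. Of the 29 list medians, 19 turned sign without A2, 4 without B2, 5 without the wild type array of B1 and 4 without that of A1. Apart from those named here, the genes named in the text kept their direction on the probe tested under each setting run. With normexp the differences of dim genes were smaller, such as Pabpn1l at 0.71 (3.34 without it), St6gal2 at 0.41 (1.41) and Spic at -0.76 (-1.44).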
